A study of Caenorhabditis elegans with 2 samples.

Results

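The C-type lectin genes of Caenorhabditis elegans were examined for binding of tagged TLP-1 in first-stage (L1) larvae. Members were all protein-coding genes whose name begins with clec- in the Ensembl annotation of the WBcel235 genome, which gave 240 gene records with 237 distinct names among 19985 protein-coding genes. Every clec- record in that annotation was protein-coding. A region was tied to a gene when its summit, the position of highest signal, lay in the gene body or within 2000 bp of one of its transcription start sites (TSSs). The data came from chromatin immunoprecipitation sequencing (ChIP-seq), in which DNA fragments bound to a chosen protein are enriched and sequenced. The animals were whole, mixed-sex L1 larvae of strain OP321, which carries the unc-119(tm4063) III mutation and the insertion wgIs321 expressing an eGFP-tagged tlp-1. The series held 1 group of 2 biological replicates with fragments of 150 to 350 bp, so no conditions could be compared. Because whole animals were used, binding in different tissues cannot be told apart, and the tagged protein comes from an inserted transgene.

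C-type lectin-like proteins carry a domain that in many family members binds sugars, and a large share of the nematode proteins are predicted to be secreted. Many worm clec- genes are known to be expressed in the intestine, and several are induced when the animal feeds on pathogenic bacteria. GATA factors such as ELT-2 are the main known regulators of intestinal genes and recognise short DNA sites with a GATA core. TLP-1 is a C2H2 zinc finger protein best known for roles in tail development, where it acts in a blast cell lineage and in shaping the male tail tip.

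The bases around the summits of the 7 member peaks that passed the authors' reproducibility threshold are shown first, because they range from 0 to 4 GATA sites. The sequence at clec-186 is added as a region just below the threshold in which 2 sites overlap. All are the plus strand, 5′ to 3′, from the RefSeq copy of WBcel235 (ce11), and capitals mark GATA sites on either strand. The letters searched were AGATAA and the variants with another first or last base, which are TGATAA and, ending in G, AGATAG and lastly TGATAG. Such a site lay within 50 bp of 32.03% of all nuclear pooled summits, and of 88.8% of the 303 nuclear summits that passed the threshold. Windows of 101 bases are centred on the summit, and windows that touch an exon are limited to 30 bases around the site nearest the summit.
clec-78, chrIV:3988751-3988851: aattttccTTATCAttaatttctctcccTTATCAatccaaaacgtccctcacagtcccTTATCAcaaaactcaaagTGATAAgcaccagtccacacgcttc
clec-233, chrV:16232308-16232408: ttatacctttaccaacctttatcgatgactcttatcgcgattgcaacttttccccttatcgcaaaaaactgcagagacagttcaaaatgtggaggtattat
clec-62 and clec-63, chrII:12895406-12895506: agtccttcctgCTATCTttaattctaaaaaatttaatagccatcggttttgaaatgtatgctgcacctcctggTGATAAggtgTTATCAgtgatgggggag
clec-140, chrII:4674378-4674407: gccgaacttatgTTATCAgttcttccgtac
clec-258, chrV:19788562-19788591: cttgcTGATAAtTGATAAtttgatgcatta
clec-265, chrX:3031627-3031727: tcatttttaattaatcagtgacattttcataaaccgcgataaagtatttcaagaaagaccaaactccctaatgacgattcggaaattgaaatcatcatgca
clec-51, chrIV:8161997-8162026: tcagaaccctggTGATAAaaacaatattaa
clec-186, chrIV:12865993-12866093: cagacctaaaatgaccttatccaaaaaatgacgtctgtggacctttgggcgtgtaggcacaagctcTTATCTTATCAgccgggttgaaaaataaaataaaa
The window at clec-78 held 4 sites, all TGATAA, of which 3 lie on the minus strand and read TTATCA as printed. The window between clec-62 and clec-63 held 3 sites, and those at clec-140, clec-258 and clec-51 held 2 each within 50 bp of the summit. At clec-258 both sites were TGATAA on the plus strand, centred 6.5 bp and 0.5 bp from the summit. The windows at clec-233 and clec-265 held 0 sites of this form.

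A smaller share of lectin genes than of all protein-coding genes had a region in the 3 unthresholded lists, and a larger share had one in the thresholded list. In replicate 1, 151 members had a region, or 62.9%, beside 70.8% of all protein-coding genes. In replicate 2 the count was 129, or 53.8%, beside 65.5%. The pooled list, called from both replicates together, held a region for 59 members, or 24.6%, beside 40.1%. It is labelled as peaks and background entered into the reproducibility step, so a pooled region need not be a binding site. The thresholded list holds the 328 pooled regions of highest signal, those retained by the authors at an irreproducible discovery rate (IDR) threshold, and tied 8 members to a peak, or 3.33%, beside 1.77%. The thresholded share rests on 7 peaks, and no test was made of its difference from the background.

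**Figure D1:**
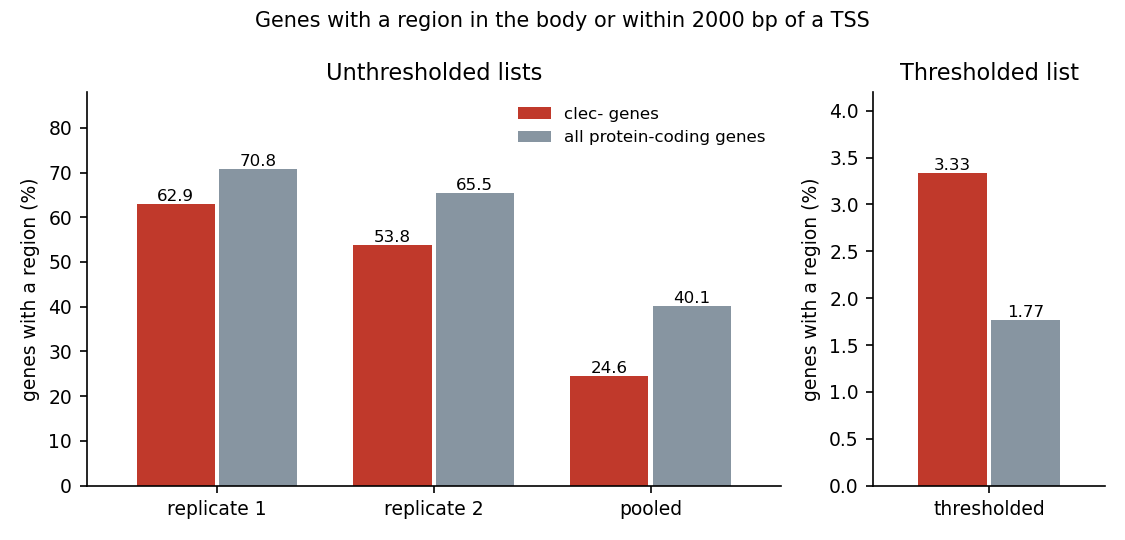
Percent of genes (y axes) with a region in the gene body or within 2000 bp of a TSS, for the 240 clec- genes (red) and all 19985 protein-coding genes (grey) in each list; the thresholded list has its own y scale. The clec- bar is lower in the replicate and pooled lists and higher in the thresholded list, at 3.33% against 1.77%.

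Counted per length of sequence, the same order of values was seen. The members' bodies and TSS surroundings covered 952 kb and held 74.6 pooled regions per Mb, beside 111 per Mb over all nuclear genes. For the thresholded list the densities were 7.35 and 3.05 per Mb. In all, 197 members had a region in at least 1 list and 43 had none, which is 17.9% of members beside 15.6% of all genes. Both replicate lists held a region for 84 members, and 46 members, or 19.2%, were in both replicate lists and the pooled list, beside 34.1% of all genes. A further 38 members had a region in both replicate lists and none in the pooled list. For the 84 and the 38 the share over all genes was not computed. Neither count can be read as particular to the lectins. Among members with a pooled region, 46 had 1, 11 had 2, and 2 had 3. The last were clec-186 and clec-7, the latter named after its count was seen.

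The member peak of highest signal was that of clec-78, at chrIV:3988641-3988960, 301 bp upstream of the TSS. Its signal value, which the authors computed on an unstated scale that differs between lists, was 93.1 in the pooled list, 41.4 in replicate 1 and 52.7 in replicate 2. Its rank was 37 in the pooled list, 35 in replicate 1 and 43 in replicate 2, so it stood among the leading regions of every list. No other protein-coding gene lay in reach of it. The peak between the divergent neighbours clec-62 and clec-63, at chrII:12895296-12895615, lay 328 bp upstream of the first and 182 bp upstream of the second. It had pooled signal 52.2 and rank 146, with ranks 94 in replicate 1 and 225 in replicate 2. Both ranks place it in the leading 328 regions of each replicate, and a region for this pair cannot be assigned to 1 of the genes.

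The peak at clec-140 (chrII:4674245-4674564, signal 49.1, pooled rank 176) was the third member peak that stood high in both replicates, at ranks 196 and 217. Its summit lay 1345 bp inside the annotated gene, in a 5′ UTR exon. The genes hmg-11, which encodes a high mobility group protein and starts 1320 bp away on the same strand, and T05A7.3 were also in reach. The peak at clec-265 (chrX:3031517-3031836, signal 39.5, pooled rank 294) lay 106 bp upstream of the TSS with no other gene in reach. It ranked 501 in replicate 1 and 360 in replicate 2. The peak at clec-51 (chrIV:8161828-8162147, signal 39.2, pooled rank 301) ranked 1106 and 319, and lay in the 3′ UTR where clec-51 and the fatty acid amide hydrolase gene faah-1 overlap tail to tail.

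The other two peaks ranked far higher in replicate 2 than in replicate 1. The peak 1566 bp upstream of clec-233 (chrV:16232198-16232517) had pooled signal 55.9 and rank 113. Its signal was 44.4 at rank 62 in replicate 2 but 8.09 at rank 6026 in replicate 1. Its nearest gene was gst-22, a glutathione S-transferase gene whose TSS lay 76 bp away. The peak 136 bp downstream of the clec-258 TSS (chrV:19788416-19788735, pooled signal 39.8, rank 288) had signal 30.8 at rank 175 in replicate 2 and overlapped no region of replicate 1.

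The number of thresholded members therefore differed with the replicate used. The leading 328 regions of replicate 1 alone were tied to 4 members, clec-62, clec-63, clec-78 and clec-140, or 1.67% beside 1.78% of all genes. Those of replicate 2 alone were tied to 9 members, or 3.75% beside 1.81%. These 9 were the 8 thresholded members without clec-265, together with clec-50 and clec-85. Of the 7 member peaks, 3 were met by the leading 328 regions of replicate 1 and 6 by those of replicate 2. Over all nuclear thresholded peaks these shares were 64.4% and 75.6%. Where each peak was counted only for the gene with the nearest TSS, 5 members were left, or 2.08% beside 1.27%, since clec-62, clec-140 and clec-233 each lay farther away than a neighbour.

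**Figure D2:**
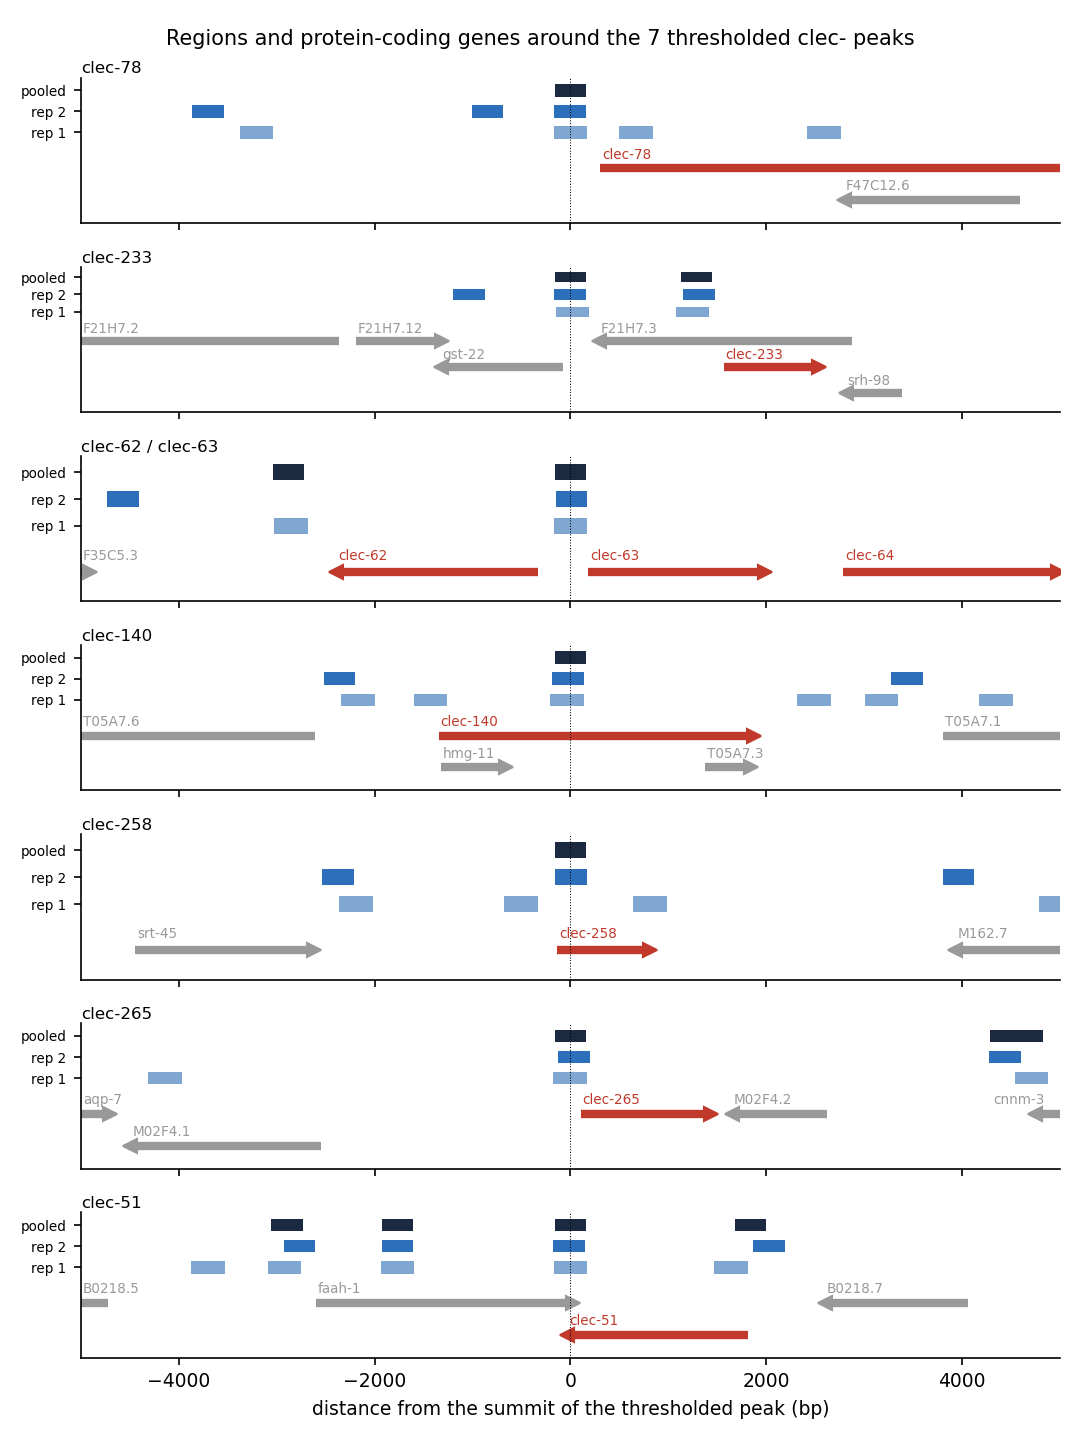
Regions of the pooled and replicate lists (bars) and protein-coding genes (arrows, clec- genes in red) against distance in bp from the summit of each of the 7 thresholded member peaks. The clec-258 peak has no bar from replicate 1 at distance 0, and gst-22 starts 76 bp from the clec-233 peak.

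The lowest signal in the thresholded list was 38.2, and the member peaks nearest to that limit were clec-51 inside it at rank 301 and clec-50 outside it at rank 398. The region at clec-50 (chrV:19755318-19755637, 110 bp upstream) had pooled signal 35.97, with 8.05 at rank 6134 in replicate 1 and 25.7 at rank 322 in replicate 2. That at clec-186 (chrIV:12865883-12866202, 66 bp upstream) had pooled signal 35.8 at rank 403, and ranks 905 and 666 in the replicates. That at clec-72 (chrIV:3944514-3944833, 142 bp upstream) had pooled signal 35.7 at rank 408, and ranks 1294 and 680. These 3 promoter regions thus stood close together just outside the threshold, with clec-186 and clec-72 at similar ranks in each replicate.

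Next came the region shared by clec-167 and clec-168, at rank 625 and 38 bp upstream of clec-168, and that at clec-85, at rank 653. The clec-85 region overlapped none in replicate 1, ranked 246 in replicate 2, and lay beyond the 3′ end of clec-85 with Y54G2A.16 as its nearest gene. Another 7 member regions stood between ranks 1001 and 3000. Those were at clec-170 (ranks 1134 and 1419), the divergent pair clec-83 and clec-84 (1317), clec-196 (1785), clec-143 (1903), clec-10 (2456) and clec-126 (2977). The 2 regions of clec-170 lay 534 and 81 bp upstream and differed in replicate support. The first ranked 1047 in replicate 2 and 11767 in replicate 1, and the second ranked 471 in replicate 1 and met no region of replicate 2. The region tied to clec-196 lay nearer to hsp-1, which encodes a constitutive Hsp70 chaperone, at 419 bp. The last of the 20 leading member regions was in an intron of clec-103 at rank 3011.

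**Figure D3:**
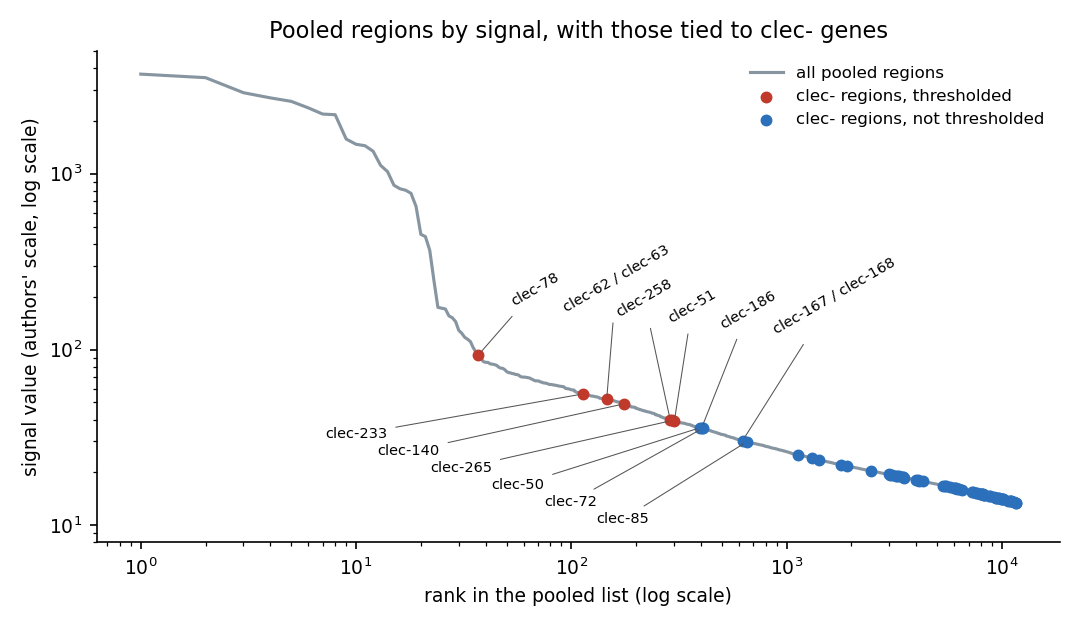
Signal value on the authors' scale (y axis, log) against rank in the pooled list (x axis, log) for all 11633 pooled regions (line) and the 71 tied to clec- genes (points, red where thresholded). The clec- points run from rank 37 at clec-78 to the end of the list. Past rank 3000 lie 52 of the 71, beside 8633 of the 11608 nuclear pooled regions.

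Most member regions were of ordinary rank. The 71 pooled member regions had a median rank of 5982, or 51.4% down the list, and a median signal of 16.3 beside 16.4 over all nuclear pooled regions. Of them, 12 (16.9%) were among the first 1000 and 19 (26.8%) among the first 3000. Rank 1134 stood 9.75% down the pooled list and rank 3011 stood 25.9% down it. The share within the first 3000 was thus near that of the whole list. The 7 thresholded regions made up 9.86% of the member regions, beside 2.61% of all nuclear pooled regions. The members' regions thus held a larger share of thresholded peaks although fewer members had a region at all. Neither difference was tested.

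Replicate support of the member regions was close to that of the whole list. Of the 71 regions, 52 overlapped a region of replicate 1 (73.2%, beside 70.5% of nuclear pooled regions), 57 one of replicate 2 (80.3%, beside 81.4%) and 39 one of each (54.9%, beside 53.6%). The pooled list was made from the same libraries, so this overlap is not independent support. The region 185 bp upstream of clec-67, at pooled rank 7324, held 3 GATA sites. It was the 1 member region that met none in either replicate (1.41%, beside 1.69% of nuclear pooled regions). Where both replicates had the region, their signals had a Spearman correlation of 0.63 over the 39 member regions and 0.18 over 6219 regions of the whole list. This describes regions that share their libraries, and no p is given. Thresholded peaks made up 9.86% of the 71 member regions, beside 2.61% of nuclear pooled regions, and the 2 correlations were not matched for rank. Starting from the replicates, 28.9% of the 204 member regions of replicate 1 were met in replicate 2, beside 32.5% of all nuclear regions. Of the 163 member regions of replicate 2, 34.97% were met in replicate 1, beside 37.3%.

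**Figure D4:**
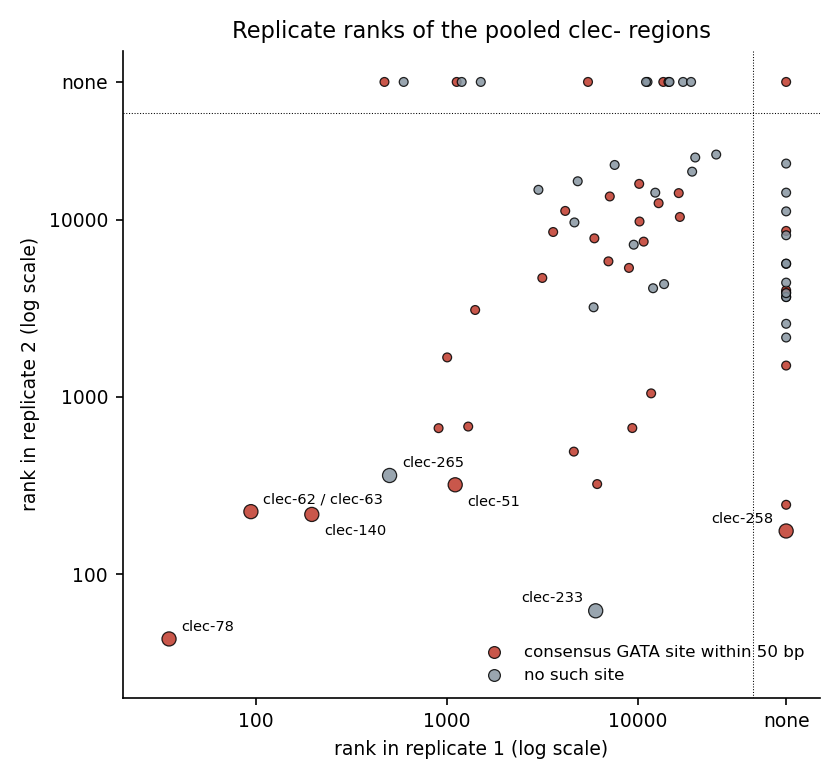
Rank in replicate 1 (x axis, log) against rank in replicate 2 (y axis, log) for the 71 pooled clec- regions, with regions absent from a replicate at "none"; large points are thresholded and red points hold a GATA site within 50 bp of the summit. The points for clec-78, clec-62 and clec-63, clec-140 and clec-265 lie low on both axes, while clec-233 and clec-258 are low on the replicate 2 axis alone.

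Of the 71 pooled member regions, 36 held a GATA site no more than 50 bp from the summit, or 50.7% (exact 95% binomial interval 38.6 to 62.8, counting error only), beside 32.03% of nuclear pooled regions. The longer form TGATAAG was present in 18.3%, beside 8.27%. Among member regions with a site, the nearest one was centred a median 22 bp from the summit, beside 18.5 bp over the whole list. Of the 71 regions, 18 held 2 or more sites, which was not counted over the whole list. Set beside the whole list, the member share was lower among the leading peaks and higher below them. In the thresholded list 5 of 7 member peaks held a site (71.4%, interval 29.0 to 96.3), beside 88.8% of 303. From rank 329 to 1000 a site was present in 5 of 5 member regions (interval 47.8 to 100), beside 67.4% of 672. From rank 1001 to 3000 it was present in 6 of 7 (85.7%, interval 42.1 to 99.6), beside 38.65% of 2000, with clec-143 the exception. From rank 3001 on it was present in 20 of 52 (38.5%, interval 25.3 to 53.0), beside 25.8%. The member regions of replicate 1 held a site in 31.9%, beside 24.99%, and those of replicate 2 in 40.5%, beside 26.9%. A match describes the letters and does not show which protein bound there.

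**Figure D5:**
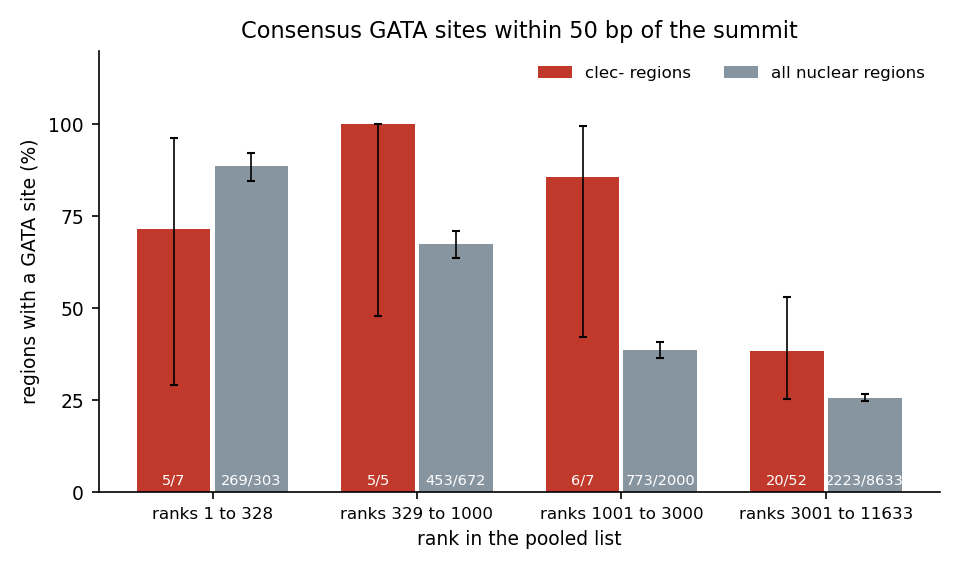
Percent of regions with a GATA site within 50 bp of the summit (y axis) in 4 bands of pooled rank (x axis), for clec- regions (red) and all nuclear regions (grey), with exact 95% binomial intervals and counts in the bars. The clec- share is below the whole list in the first band, at 5 of 7 against 269 of 303, and above it in the other 3 bands.

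Position relative to the TSS moved with the GATA share. Of the 74 pairs of a member and a pooled region, 36 had the summit in the member's promoter, from 500 bp upstream to 200 bp downstream of a TSS, which is 48.6% beside 21.4% of pairs over all genes. Introns held 14.9% of the pairs, beside 35.97%, and the median distance from the TSS was 414.5 bp, beside 1064 bp. Gene bodies count as reach, and these values were not matched for gene length. Over 4000 bp long were 14 of the 240 members, beside 4402 of the 19985 protein-coding genes. Of the 35 member regions in a member promoter, 24 held a GATA site (68.6%), beside 42.2% of all promoter regions. Of the 36 outside a member promoter, 12 did (33.3%), beside 29.3% of all regions outside any promoter. These sets were not split alike, because the 36 include regions in the promoter of another gene. Examples are the regions 76 bp upstream of gst-22 and 419 bp upstream of hsp-1. The shares of 33.3% and 29.3% are therefore not matched. The part of promoter position in the higher share of sites was not tested beyond these splits. For 46 of the 71 regions the nearest TSS belonged to a member, for 22 it belonged to another gene, and 3 had none in reach. Another protein-coding gene was in reach of 42. These counts were not made over all nuclear pooled regions, so they describe the member regions alone.

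Gene length also differed between members and background. The median member was 1787 bp long, beside 2026 bp over all protein-coding genes, and pooled regions were less frequent at short genes in both. The pooled share of members was below that of all genes in each of 4 length bands. It was 17.4% beside 30.6% up to 1500 bp, 21.3% beside 34.0% up to 2500 bp, 37.0% beside 41.8% up to 4000 bp, and 7 of 14 members beside 60.9% above that. The members also lay mainly in the outer parts of the chromosomes, outside the middle 1 of 3 equal segments, 84.2% of them beside 62.2% of all genes. In the outer segments 22.8% of members had a pooled region, beside 40.2% of genes, and in the middle segments 34.2%, beside 39.97%.

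Many of the lectin genes lie in arrays. Runs of at least 3 members with gaps of at most 20 kb numbered 20 and held 106 members, or 44.2%. A pooled region was tied to 19 of these 106 (17.9%) and to 40 of the 134 outside (29.9%), beside 40.1% of all genes. A thresholded peak was tied to 3 in arrays (2.83%) and 5 outside (3.73%), beside 1.77%. By chromosome, V held 86 members, IV 53, II 48, I 36, III 14 and X 3. The share of members with a pooled region was below that of all genes on 5 of these chromosomes. It was 20.9% beside 36.7% on V, 32.1% beside 40.8% on IV, 18.8% beside 35.3% on II and 22.2% beside 39.7% on I, and 1 of 3 members beside 50.6% on X. On III it was 6 of 14 members, or 42.9% beside 41.5%.

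In the 4 arrays with most pooled regions, members with and without one lay side by side. The array at chrIV:3922165-4014235 held 12 members, from clec-67 to clec-78, of which clec-67, clec-72, clec-76 and clec-78 had 1 pooled region each, at ranks 7324, 408, 9583 and 37. Its other 8 members, clec-68, clec-70, clec-71, clec-73, clec-74, clec-75, clec-79 and clec-174, had none in the pooled list. In the array of 5 at chrII:12893062-12906644, clec-62 and clec-63 shared the thresholded peak, clec-65 had a pooled region at rank 7582 125 bp upstream, and clec-64 and clec-66 had none in the pooled list. In the array of 6 at chrIV:1245171-1274425, clec-167, clec-168 and clec-170 had pooled regions, and clec-165, clec-166 and clec-169 had none in the pooled list. In the array of 5 at chrIV:2823746-2855456, clec-80, clec-83, clec-84 and clec-85 had pooled regions and clec-82 had none in the pooled list, with clec-80 at rank 11596. The array with most members, 13 genes at chrV:16839121-16869840, had 0 with a pooled region, beside 40.1% of all genes. Of the 13, 6 had a region in replicate 1 and 5 in replicate 2, beside 70.8% and 65.5% of all genes.

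Near-identical copies could blur the assignment of reads in such arrays. A match of at least 90% identity over 100 bp elsewhere in the genome was found for 3 of the 71 pooled member regions, those at clec-126 (rank 3476), clec-162 and clec-92, which were named after the matches were seen. No thresholded member peak had such a match. Without these regions 57 members had a pooled region and 8 a thresholded peak. The search covered called regions alone, so it cannot show regions that were missed where reads match several copies.

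Lectins known from the response to pathogens had a pooled region about as often as the members in general. Of 14 such genes, 3 had a pooled region (21.4%, beside 24.6% of all members and 40.1% of all genes) and 0 a thresholded peak, beside 1.77% of all genes. A region was present for 9 of the 14 in replicate 1 and for 7 in replicate 2, beside 70.8% and 65.5% of all genes. The 3 with a pooled region were clec-85 (ranks 653 and 8716), clec-41 and clec-67. The clec-41 region, at rank 6059, lay 74 bp upstream and held 2 GATA sites, the nearer 2.5 bp from the summit. The other 11, clec-60 and clec-66 among them, had none in the pooled list. Of the genes of immune signalling, a pooled region was tied to 16 of 20 (80%, beside 40.1% of all genes). A thresholded peak was tied to 1 of the 20 (5%, beside 1.77%), the JNK-type MAP kinase gene kgb-1 (signal 41.4, rank 262). Single genes of this list had up to 11 pooled regions, and gene length was not matched. Of 87 genes named lys-, ilys-, spp-, cnc-, abf-, thn-, dod- or irg-, 41 had a pooled region (47.1%, beside 40.1% of all genes). The pooled share ran from 27.3% for cnc- to 70% for lys-, and some neighbouring genes were counted through the same region. Of the 87, 8 had a thresholded peak (9.20%, beside 1.77%). These 8 were the lysozyme genes lys-1, lys-2 and lys-8, the saposin-like genes spp-14 and spp-17, and dod-19, dod-21 and irg-4. Their ranks ran from 34 for lys-8 to 265 for lys-1. These lists were chosen with results of the series known, and the differences from the lectins were not tested.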

How the data were processed

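The deposited files hold called regions from 2 biological replicates on ce11, per the labels and the accompanying text files. They comprise 1 list per replicate, 1 pooled list labelled as peaks and background, and 1 IDR-thresholded list. The signal value of each region was made by the authors from alignments, on a scale that is not stated and differs between lists, so ranks within a list were used. The summit offset deposited with each region set its position. The aligner, peak caller and IDR threshold are not given in the sources used here. The lists hold no read counts, so depth is unknown and no error of a single signal can be given. They held 28183, 23975, 11633 and 328 regions, and the thresholded list equalled the 328 leading pooled regions. The lists on the older build ce10 were not used here.

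Genes came from Ensembl release 115 and sequence from the RefSeq WBcel235 genome, which is ce11. Regions were tied to genes and counted with Python 3.11.15, numpy 2.4.6 and scipy 1.17.1, copies were sought with blastn 2.17.0, and overlaps needed 1 bp. With 1 group no test was made, and p-values were not computed. Region assignment and motif counts were tested on simulated data, and the overlaps between lists were not. Members, gene lists and comparisons were chosen with earlier results of these data known. Genes named are members with a thresholded peak, at the 20 leading member regions, at the 5 leading ones of each replicate, in the 4 arrays with most pooled regions, or pathogen-response lectins with a pooled region, with genes sharing a leading region and thresholded genes of the other lists.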

Additional observations from a re-analysis of the deposited data

How the results depend on the processing

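The count of 59 members with a pooled region stayed between 40 and 61 under 5 other rules of assignment, and was below the share of all genes under each of them. Replaced by the list of 1 replicate it was 129 to 151, since those lists hold more regions. The count of 8 members with a thresholded peak was 7 or 8 with a reach of 500 bp, without gene bodies, with gene ends alone or with any overlap. It was 5 with the nearest TSS alone, 4 in the upper 50% of the thresholded list (1.67%, beside 0.896%), 14 in the first 1000 pooled regions (5.83%, beside 5.11%), and 4 to 9 with 1 replicate left out, where the share for replicate 1 alone was below that of all genes. The GATA share of 50.7% was 28.2% within 25 bp (beside 19.2%), 62.0% within 100 bp (beside 47.5%) and 31.9% to 40.5% in single replicates. The median rank percentile of 51.4 ran from 47.4 to 52.5 in single replicates. Members in arrays made up 52.1% with gaps of up to 50 kb. The share of regions met in both replicates, 54.9%, was 45.1% with stricter overlap (beside 44.5%) and 46.5% with the summit inside (beside 45.3%). The exclusion of copied regions was added after the data were seen. No paired analysis was possible because the series holds 1 group. The depth is unknown, which leaves absence from a list unable to show absence of binding.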

Other observations

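The thresholded peaks at clec-233 and clec-265, which hold no site of the 4 GATA forms, hold CGATAA or CGATAG within 50 bp of the summit, with 3 sites at clec-233 and 1 at clec-265. This form was looked for after the sequences had been read. It was present in 12 of the 34 nuclear thresholded peaks without a consensus site (35.3%), and in 6.03% of the nuclear pooled regions without one. Over all nuclear thresholded peaks it was present in 21.1%, and over all nuclear pooled regions in 7.11%. The clec-258 peak held 2 such sites beside its consensus pair, and the clec-50 region held 1. What binds these letters was not tested.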
